A study of Mus musculus with 17 samples.

Results

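The 33 genes described here are mouse genes known to be imprinted, taken from a list of symbols and matched to the identifiers of the deposited count tables. All 33 matched 1 identifier each, out of 49671 genes in the tables. They were followed in 17 RNA-seq libraries of the mouse embryonic stem cell line R1 with FOXA2-Venus, a fluorescent reporter of the transcription factor FOXA2, in a series on floor plate formation in neural tube organoids. The floor plate is a strip of cells along the ventral side of the neural tube, and FOXA2 marks it. Library titles give a FOXA2-positive and a FOXA2-negative fraction for each of 3 treatments, which makes 6 groups. All groups share the cell line, the reporter and retinoic acid (RA), a signal made from vitamin A that gives neural cells a posterior identity. The RA groups had RA for 18 hours, and nothing further is given for them. The BMP4 groups had RA for 18 hours, no treatment for 6 hours and then BMP4, a bone morphogenetic protein, for 8 hours. The LDN groups had the same schedule with an agent named only as LDN in the last 8 hours. Each group held 3 libraries except FOXA2-positive LDN, which held 2, numbered 2 and 3. The groups model 1 cell line in culture, and whether RA libraries were collected at another time is not given, so treatment and time cannot be told apart there.

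Imprinted genes are transcribed mainly from the copy inherited from 1 parent. The choice is written as DNA methylation in the egg or sperm, at control regions that stay methylated on 1 parental copy through the wave of demethylation in the early embryo. Many imprinted genes lie in clusters in which protein-coding genes and long non-coding RNAs share such a region, and many act on growth, the placenta or the brain. The protein ZFP57, with its partner TRIM28, holds the methylation at control regions by binding a methylated hexamer, TGCCGC. Embryonic stem cells in culture can lose or gain imprints. The counts give the RNA of both copies together, so which allele was read was not measured here.

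By the usual assignment in mouse, 20 members are expressed from the paternal copy and 11 from the maternal copy, and for 2 (Gnas and Grb10) the copy depends on tissue or isoform. They lie in 8 imprinted domains, with 7 more at single loci. Chromosome 7 holds 15 members and chromosome 6 holds 5. The expression filter kept 31 members among the 17813 genes tested. Dlk1, a transmembrane relative of the Notch ligands, was left out with 52 counts in 13 libraries. Rtl1, a gene derived from a retrotransposon, had 0 counts in all 17 libraries, which allows a level of up to 0.0180 CPM (counts scaled to library size) over the series, if 3 counts are taken as the limit that a count of 0 allows. Such limits cover counting error only.

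Libraries held between 8435845 and 10796136 counts assigned to genes, and members together took between 0.358% and 0.536% of them. Foxa2 was higher in the FOXA2-positive fraction in each treatment, with log2 fold changes of 6.15 ± 0.85 (standard error, SE) in RA, 5.07 ± 0.78 in BMP4 and 4.50 ± 0.75 in LDN. Sums of 11 floor plate genes, Foxa2 included, were 12.2 to 47.5 CPM in FOXA2-negative and 45.5 to 103 CPM in FOXA2-positive libraries. Of the 7 tested, Foxa2, Foxa1 and Slit1 were higher averaged over the treatments (edgeR adjusted p under 0.05, as for 3.12% of all genes) and 0 were lower. Shh, which the mature floor plate secretes, was at 0 counts in 5 of the 6 groups, and Ferd3l in all 6. Summed levels of 14 pluripotency genes were between 854 and 1373 CPM in FOXA2-negative libraries and between 504 and 687 CPM in FOXA2-positive libraries, where Tdgf1 was at 0 in RA and Tdgf1 and Nanog were at 0 in LDN. The sums of 12 endoderm genes were 10.8 to 38.9 and 63.1 to 139 CPM in the same order, with Cer1 at 0 in all 6 groups and Afp at 0 in 5. Sums of 11 neural progenitor genes were 419 to 735 and 537 to 1155 CPM, with Fabp7 at 0 in RA FOXA2-negative libraries. The part of these other cell identities in the differences given below was not tested. Fewer expressing cells and less RNA per cell cannot be told apart in such bulk libraries.

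Both RA libraries numbered 1 stand apart, with the highest mitochondrial shares (6.94% and 7.43% of counts, against 4.81% or less elsewhere). In both of them 3 members lay outside the range of the other 15 libraries, as did 8.64% of all genes tested. Impact, which restrains the amino acid sensor kinase GCN2, stood at 416 and 418 CPM there and between 679 and 1176 CPM elsewhere. Peg12 was low (32.8 and 43.1 against 60.2 to 311 CPM). Kcnq1ot1, the long RNA that silences its cluster in cis, was high (656 and 874 against 232 to 409 CPM). Calls that end without this pair of libraries are named with each result.

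Levels between genes were compared as CPM per kilobase of annotated exon (CPM per kb), averaged over the 6 group means. Phlda2, which restrains growth of the placenta, was the highest member at 207 CPM per kb. Impact (163), Mest (103), H19 (97.6), the small nuclear ribonucleoprotein gene Snrpn (86.1), Peg10 (79.8), the cell cycle inhibitor gene Cdkn1c (68.0) and Nnat (66.5) came next on the same scale. Dlk1 at 0.0581, Zim1 at 0.116 and Rian at 0.298 CPM per kb were the lowest of the 32 members with a count. The median member lay at percentile 70.4 of the genes tested. In CPM without the length correction, 15 members averaged 50 or more and 12 averaged less than 10. Neighbours within a domain differed widely: Peg3 had 18.1 CPM per kb and Usp29, whose start lies 146 bases away on the other strand, had 0.501. In the Dlk1-Meg3 domain Mirg had 3.61 CPM per kb (percentile 56.8 of the genes tested), Meg3 1.10 (percentile 34.1) and Rian 0.298 (percentile 14.4). Exon lengths include every annotated isoform, so the order of close neighbours on this scale was not tested.

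**Figure D1:**
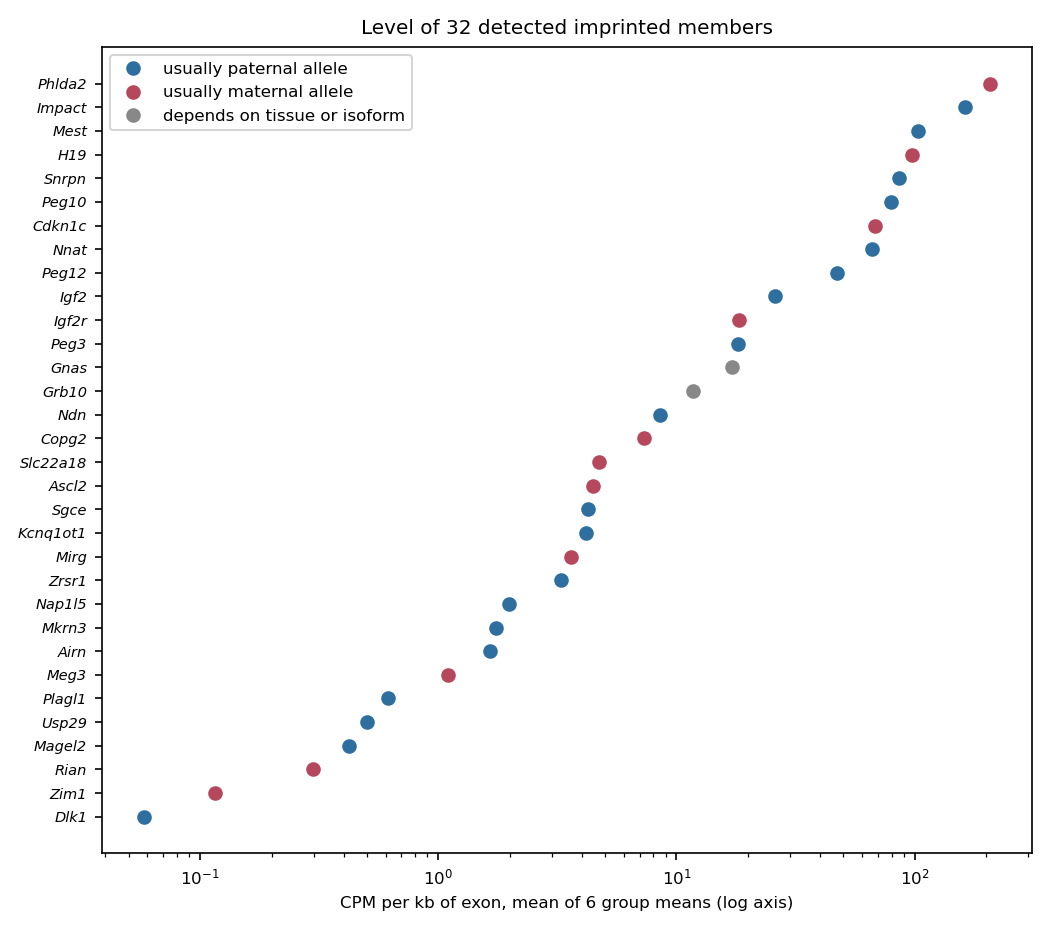
Level of the 32 imprinted members with a count, as CPM per kilobase of exon averaged over the 6 group means, on a log axis. Colours give the copy usually expressed, and levels run from 0.0581 for Dlk1 to 207 for Phlda2 with both parental classes across the range.

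The first comparison asked how members differ between FOXA2-positive and FOXA2-negative cells. In the mean of the 3 treatments 9 of 31 members (29.0%) passed edgeR's quasi-likelihood test at an adjusted p under 0.05, against 7.62% of all genes. Members were chosen with earlier results of these data known. Their median CPM per kb lay at percentile 70.4 of the genes tested, and shares here and below were not matched for level. FOXA2-positive cells had more Nnat, Gnas, Grb10, Copg2 and Ndn RNA (5 members, 3.12% of all genes higher), and less Ascl2, Phlda2, Igf2r and Mest RNA (4 members, 4.5% of all genes lower). Within a treatment, where fewer libraries enter, 3 members passed in RA (1.19% of all genes did), 2 in BMP4 (0.921%) and 2 in LDN (0.994%). Nnat was the member called in all 3. The median size of the log2 fold change was 0.49 for members and 0.33 for all genes in the mean of the treatments. Its signed median was 0.14 for members and -0.03 for all genes. The treatments share no library in these 3 comparisons, but their tests share an estimate of the spread from the model of all libraries. The mean is made of the same libraries and is no separate evidence.

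**Figure D2:**
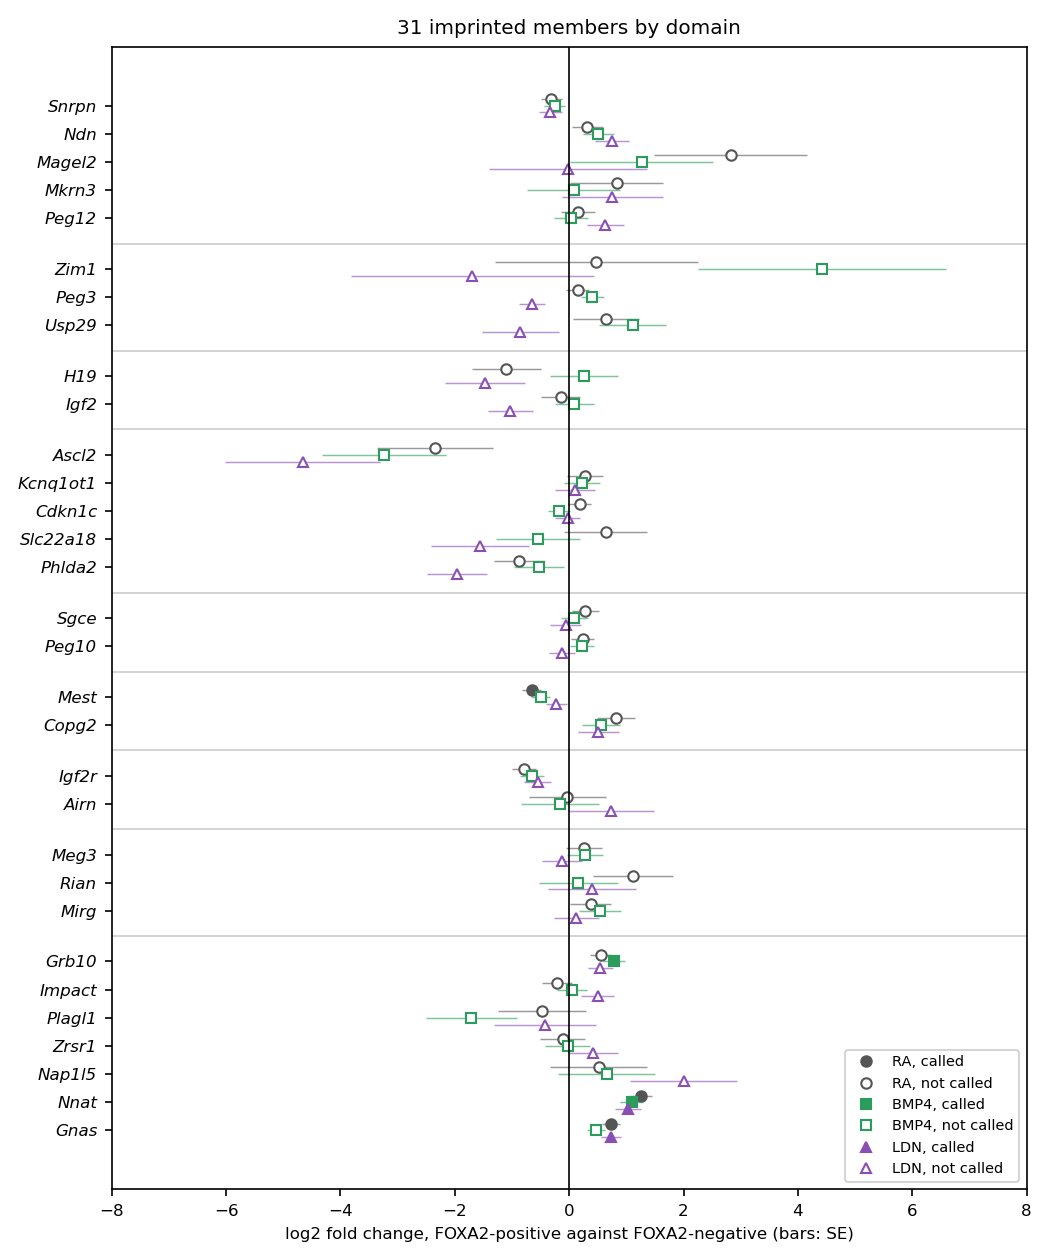
Log2 fold change between fractions (FOXA2-positive over FOXA2-negative) for the 31 tested members, by domain and treatment, with SE bars. Filled symbols passed the test in that treatment: Nnat in all 3, Gnas in RA and LDN, Mest in RA and Grb10 in BMP4.

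Another reading of the same libraries asks whether every FOXA2-positive library lies on 1 side of every FOXA2-negative one. That held for 10 members in RA (32.3%, against 15.2% of all genes), 10 in BMP4 (32.3% against 14.8%) and 15 in LDN, where only 2 libraries are FOXA2-positive (48.4% against 27.8%). In the same direction in all 3 treatments it held for Nnat and Gnas, which were higher, and for Phlda2 and Ascl2, which were lower. Of all genes, 2.45% met that condition.

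Nnat encodes neuronatin, a small membrane protein of the developing nervous system, and lies in an intron of Blcap on the opposite strand (chromosome 2, 157560078 to 157562522, plus strand, GRCm38). In FOXA2-negative libraries its level was 49.5, 59.9 and 94.9 CPM in RA, 95.7, 77.7 and 89.3 in BMP4, and 70.4, 84.9 and 66.7 in LDN, in order of replicate number. FOXA2-positive libraries held 143, 183 and 160 CPM in RA, 187, 175 and 198 in BMP4, and 184 and 118 in LDN. Every FOXA2-positive library was above every FOXA2-negative library of the whole series. Log2 fold changes were 1.25 ± 0.21 (SE) in RA (edgeR adjusted p = 0.00144), 1.09 ± 0.20 in BMP4 (adjusted p = 0.00592) and 1.03 ± 0.22 in LDN (adjusted p = 0.0183). In the mean the difference was 1.12 ± 0.12 (edgeR adjusted p = 7.59e-07) and it stayed called without any 1 of the 17 libraries. The BMP4 call ended without FOXA2-negative replicate 2 (adjusted p = 0.0597), and the LDN call without FOXA2-negative replicate 1 (0.0840) or 3 (0.0919) or FOXA2-positive replicate 2 (0.394). Blcap, annotated on the other strand, was at 21.1 to 26.0 CPM in all group means.

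The Nnat promoter is printed because Nnat was the member called in every treatment. Capitals mark the hexamer TGCCGC or its reverse complement GCGGCA, wherever it was found in the window from 250 bases before to 50 bases after the start of a transcript (RefSeq, GRCm38.p6).

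Nnat promoter, chr2:157559828-157560127, plus strand: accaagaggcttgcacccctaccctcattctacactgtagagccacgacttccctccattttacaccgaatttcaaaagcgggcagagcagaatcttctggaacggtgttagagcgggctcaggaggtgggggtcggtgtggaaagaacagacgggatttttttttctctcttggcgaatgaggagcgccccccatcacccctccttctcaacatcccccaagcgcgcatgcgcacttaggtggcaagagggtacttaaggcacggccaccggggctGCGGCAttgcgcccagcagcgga

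This window holds 1 match and 17 CpG dinucleotides. A match is a run of letters and does not show binding, and methylation was not measured.

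Gnas, the gene of the stimulatory G protein alpha subunit and of other transcripts from the same locus, was also higher in FOXA2-positive cells (chromosome 2, 174284320 to 174346744, plus strand). It stood at 141, 92.5 and 137 CPM in RA FOXA2-negative libraries and at 220, 193 and 203 CPM in the FOXA2-positive ones. BMP4 gave 177, 160 and 137 against 227, 208 and 219 CPM. LDN gave 183, 176 and 146 against 296 and 263 CPM. No library of one fraction reached into the range of the other within a treatment. The log2 fold change was 0.73 ± 0.16 in RA (edgeR adjusted p = 0.0169), 0.47 ± 0.16 in BMP4 (0.221), 0.73 ± 0.18 in LDN (0.0390) and 0.64 ± 0.10 in the mean (6.02e-05). The call in the mean held without any 1 library. In RA the call ended without FOXA2-negative replicate 2 (adjusted p = 0.142) or FOXA2-positive replicate 1 (0.0695) or 3 (0.0517). In LDN it ended without any 1 of the 5 libraries (0.0706 to 0.293) and with library totals in place of TMM scaling (0.0665). A fit of the RA groups alone gave 0.144 in RA. Exons of Gnas overlap those of the antisense gene Nespas, at 28.3 to 40.5 CPM in group means, and reads of the overlap cannot be told apart without a strand setting.

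Grb10 encodes an adaptor that restrains insulin and IGF receptor signalling (chromosome 11, 11930508 to 12038683, minus strand). Its BMP4 libraries held 117, 89.4 and 96.5 CPM in the FOXA2-negative and 196, 159 and 168 CPM in the FOXA2-positive fraction, with a gap between the fractions. RA libraries held 67.3, 103 and 78.4 against 147, 124 and 94.0 CPM and overlapped. In LDN the values were 58.2, 72.6 and 66.6 against 110 and 82.2 CPM. The difference was 0.79 ± 0.19 on the log2 scale in BMP4 (edgeR adjusted p = 0.0478), 0.55 ± 0.19 in RA (0.237), 0.54 ± 0.22 in LDN (0.317) and 0.63 ± 0.12 in the mean (0.000842). The BMP4 call ended without any 1 of its 6 libraries (adjusted p = 0.0525 to 0.237), with RLE scaling (0.0534), with library totals (0.0644) and without chromosomes 6, 8 and Y (0.0607), while the mean was called without any 1 of 17.

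Igf2r, the receptor that takes up IGF2 and sends it for breakdown, was lower in FOXA2-positive cells in the mean of the treatments (chromosome 17, 12682406 to 12769664, minus strand). RA libraries held 161, 242 and 238 CPM in the FOXA2-negative and 78.6, 131 and 162 CPM in the FOXA2-positive fraction, which overlapped by the closest pair. BMP4 libraries held 170, 173 and 234 against 115, 121 and 131 CPM, and LDN libraries 248, 180 and 234 against 149 and 152 CPM, both without overlap. The log2 fold change in the mean was -0.66 ± 0.13 (edgeR adjusted p = 0.00103), called without any 1 library. Within RA it was -0.79 ± 0.21 (adjusted p = 0.0612). With replicate numbers as a block, a choice made for RA from the same data, Igf2r was called in RA (-0.82, edgeR adjusted p = 0.00129). So was Phlda2 (-0.91, adjusted p = 0.00516), which made 5 members in place of 3, while all genes called went from 212 to 362. Airn, the long RNA that silences the paternal Igf2r copy in other tissues, overlaps Igf2r over 28354 bases on the opposite strand. It stayed between 0.777 and 10.7 CPM and was not called (0.18 ± 0.41 in the mean, adjusted p = 0.921).

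The Kcnq1 domain on chromosome 7 held 2 of the 4 members that were lower. Phlda2 (143501545 to 143503150, minus strand) stood at 137, 211 and 182 CPM in RA FOXA2-negative libraries and at 70.0, 132 and 86.1 CPM in the FOXA2-positive ones. BMP4 gave 443, 408 and 396 against 331, 303 and 233 CPM. LDN gave 126, 240 and 622 against 81.5 and 86.9 CPM. The fractions did not overlap in any treatment, and the LDN FOXA2-negative libraries spread the most. The difference in the mean was -1.13 ± 0.27 on the log2 scale (edgeR adjusted p = 0.0230). That call ended without LDN FOXA2-positive replicate 2 (adjusted p = 0.0954) or 3 (0.0882), and without both RA libraries numbered 1 (0.0578).

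Ascl2, a basic helix-loop-helix factor of the trophoblast (142966829 to 142969264, minus strand), had the largest log2 fold change of the 31 members in the mean of the treatments. FOXA2-negative libraries held 8.46, 16.0 and 11.1 CPM in RA, 12.7, 3.22 and 7.07 in BMP4, and 26.7, 4.08 and 29.6 in LDN. FOXA2-positive libraries held 1.77, 1.41 and 3.78 CPM in RA, 2.27, 0 and 0.0969 in BMP4, and 1.51 and 0 in LDN. In each treatment all FOXA2-positive libraries were lower. The log2 fold change in the mean was -3.41 ± 0.67 (edgeR adjusted p = 0.00245) and ranged from -5.40 to -3.11 when 1 library was left out, and it stayed called. With counts this low its size is uncertain. Cdkn1c, Kcnq1ot1 and the transporter gene Slc22a18 did not pass in any fraction comparison, with differences in the mean of -0.01 ± 0.12, 0.20 ± 0.19 and -0.49 ± 0.44. Surface ectoderm markers, several of which the trophoblast also expresses, were mostly lower too. In the mean 6 of 11 tested were called lower and 1 higher (4.5% and 3.12% of all genes). Their sum was 675 to 795 CPM in FOXA2-negative and 396 to 484 CPM in FOXA2-positive RA libraries. LDN gave 840 to 1011 against 449 to 515 CPM. In BMP4 the sums overlapped, at 808 to 844 against 721 to 823 CPM, with 1 marker called higher and 1 lower (0.921% of all genes called). Krt14 and Trp63 were at 0 in every FOXA2-positive group and in BMP4 FOXA2-negative libraries. Krt14 was also at 0 in LDN FOXA2-negative libraries. The part of these markers in the Phlda2 and Ascl2 values was not tested.

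**Figure D3:**
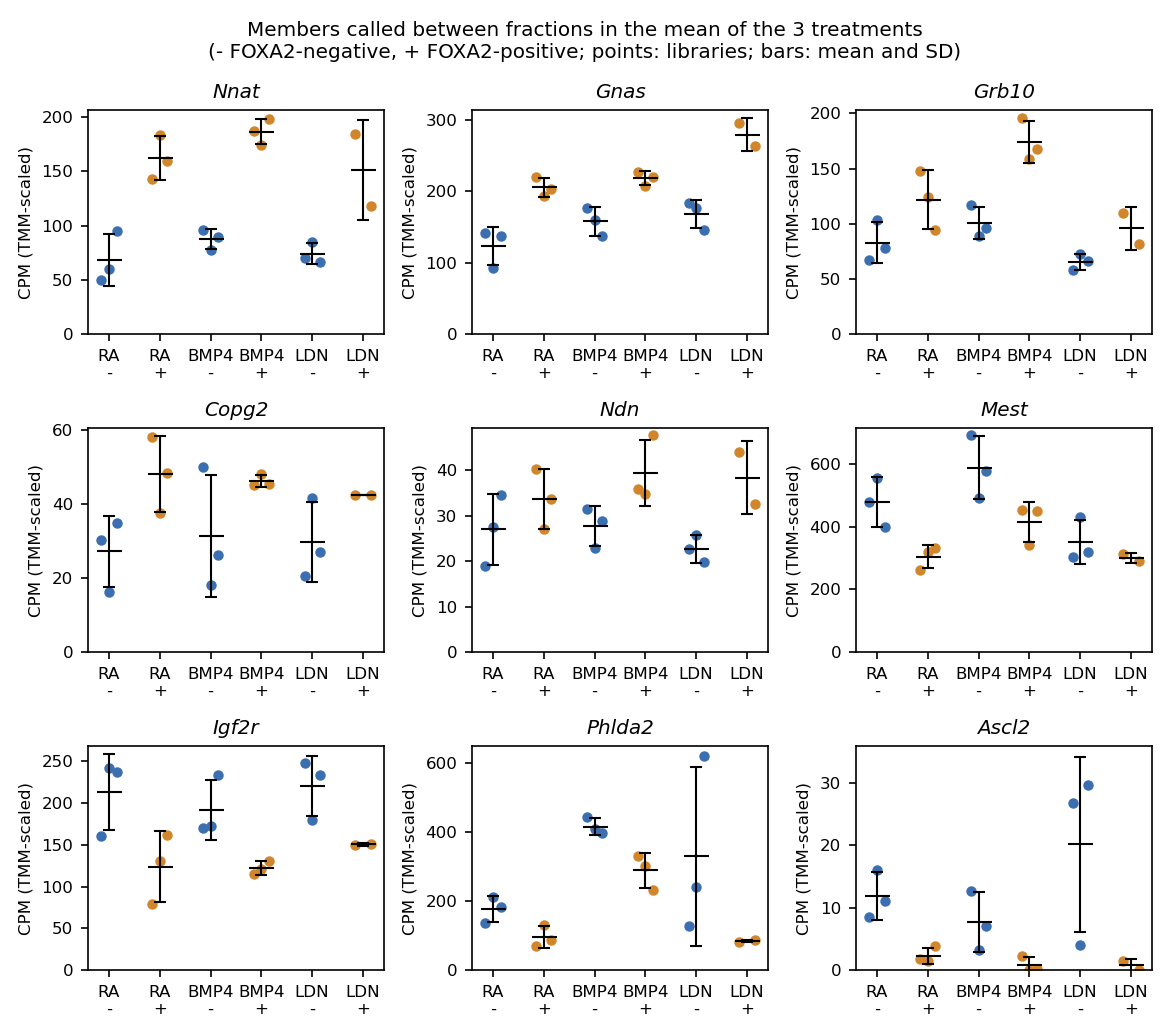
TMM-scaled CPM of the 9 members called between fractions in the mean of the 3 treatments, with 1 point per library and bars for mean and SD. Within each treatment the FOXA2-positive libraries are above for Nnat (118 to 198 CPM over the series) and below for Ascl2 (0 to 3.78 CPM).

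Mest and Copg2 form 1 domain on chromosome 6 and went in opposite directions. Mest, an enzyme-like protein of the early mesoderm (30723547 to 30748465, plus strand), held 480, 557 and 398 CPM in RA FOXA2-negative libraries and 262, 319 and 333 CPM in the FOXA2-positive ones. BMP4 gave 693, 492 and 577 against 453, 342 and 450 CPM, also apart. LDN libraries overlapped, with 304, 431 and 319 against 312 and 290 CPM. The log2 fold change was -0.65 ± 0.17 in RA (edgeR adjusted p = 0.0477), -0.50 ± 0.16 in BMP4 (0.196), -0.22 ± 0.19 in LDN (0.677) and -0.46 ± 0.10 in the mean (0.00403). The mean was called without any 1 library. The RA call ended without any 1 of its libraries except FOXA2-negative replicate 3 (adjusted p = 0.0794 to 0.267), without both libraries numbered 1 (0.272) and in a fit of the RA groups alone (0.139).

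Copg2, a subunit of the coat of Golgi vesicles (30747554 to 30896794, minus strand), was lower in level. In FOXA2-negative libraries it stood at 30.3, 16.3 and 35.0 CPM in RA, 49.9, 18.3 and 26.1 in BMP4, and 20.5, 41.6 and 27.0 in LDN. In FOXA2-positive libraries it stood at 58.1, 37.7 and 48.5 CPM in RA, 45.0, 48.0 and 45.5 in BMP4, and 42.4 and 42.5 in LDN. The fractions were apart in RA and, narrowly, in LDN, and overlapped in BMP4 through FOXA2-negative replicate 1. The difference in the mean was 0.63 ± 0.19 on the log2 scale (edgeR adjusted p = 0.0461). It was no longer called without any 1 of 12 libraries (adjusted p = 0.0684 to 0.0994), and it was kept only without RA FOXA2-negative replicate 1 or 3, RA FOXA2-positive replicate 2, BMP4 FOXA2-negative replicate 1 or LDN FOXA2-negative replicate 2. It also ended with library totals in place of TMM scaling (0.0650) and without both RA libraries numbered 1 (0.0853). The genes overlap by 912 bases at their ends on opposite strands, where reads cannot be told apart without a strand setting.

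Genes of chromosome 6 had a raised median in the FOXA2-positive libraries. The median log2 fold change of 335 genes of chromosome 6 with at least 20 CPM was 0.31 in RA, 0.34 in BMP4, 0.24 in LDN and 0.29 in the mean. It was -0.03 in the mean for all genes tested, which had no such limit on level. A median of genes with at least 20 CPM on other chromosomes was not taken. Mest lay 0.75 below that median, with 9 of the 335 genes lower than it, and Copg2 lay 0.34 above it, with 305 lower. Peg10 at 0.11 and the sarcoglycan gene Sgce at 0.11 lay 0.18 and 0.19 below it and did not pass the test (adjusted p = 0.724 and 0.80). The part of the shift of the chromosome 6 median in the values of these members was not tested.

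**Figure D4:**
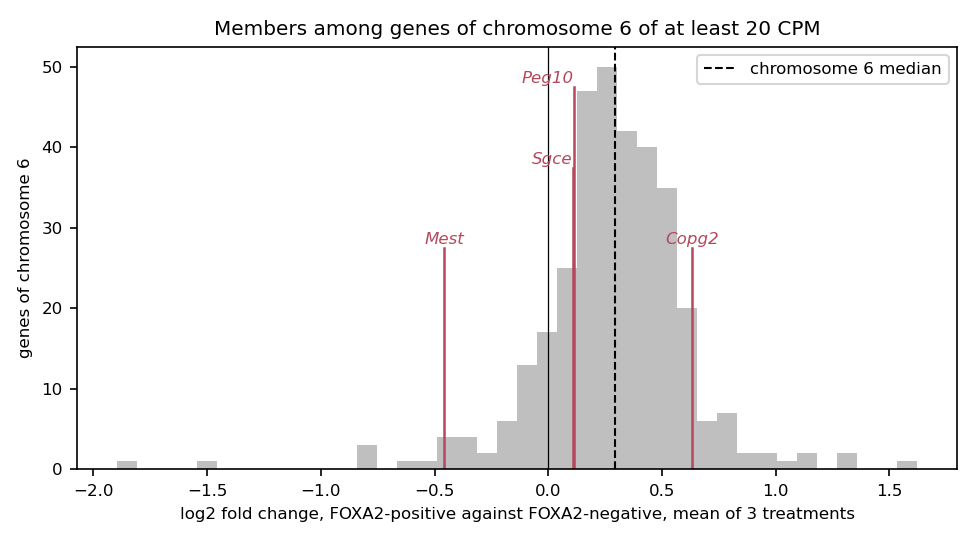
Histogram of the log2 fold change, FOXA2-positive against FOXA2-negative in the mean of 3 treatments, for 335 genes of chromosome 6 with at least 20 CPM. The dashed line is their median of 0.29, and red lines mark Mest at -0.46, Peg10 and Sgce at 0.11 and Copg2 at 0.63.

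Promoters of Mest and Copg2 are shown because the domain's 2 genes moved apart. RefSeq gives Mest 3 starts, and the window shown belongs to the second along the gene, 3 bases before the last. Capitals again mark the hexamer, and both windows read 5′ to 3′ on the gene's own strand.

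Mest promoter, chr6:30737800-30738099, plus strand: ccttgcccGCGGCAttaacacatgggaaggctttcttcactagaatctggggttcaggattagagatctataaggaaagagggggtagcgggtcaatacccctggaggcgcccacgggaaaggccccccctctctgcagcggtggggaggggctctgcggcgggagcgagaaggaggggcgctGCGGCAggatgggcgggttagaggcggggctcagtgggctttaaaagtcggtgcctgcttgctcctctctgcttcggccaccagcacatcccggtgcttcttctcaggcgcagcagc

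Copg2 promoter, chr6:30896745-30897044, minus strand: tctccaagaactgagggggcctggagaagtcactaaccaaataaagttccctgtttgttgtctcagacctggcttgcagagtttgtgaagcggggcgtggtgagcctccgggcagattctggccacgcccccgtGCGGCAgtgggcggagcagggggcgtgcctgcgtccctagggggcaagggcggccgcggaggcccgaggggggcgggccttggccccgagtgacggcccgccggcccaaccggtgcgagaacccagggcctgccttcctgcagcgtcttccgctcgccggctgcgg

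The Mest window holds 2 matches and 17 CpG dinucleotides, and the Copg2 window holds 1 match and 25 CpG dinucleotides. A window at the upstream Mest start (chr6:30733256-30733555) has no match and 8 CpG dinucleotides.

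Ndn, the necdin gene of the MAGE family, was the member of the Prader-Willi domain called in the mean (chromosome 7, 62346569 to 62350262, plus strand). It held 19 to 34.6 CPM in RA FOXA2-negative and 27.0 to 40.3 CPM in RA FOXA2-positive libraries, which overlapped. BMP4 held 31.4, 22.9 and 28.8 against 35.8, 34.8 and 47.8 CPM, and LDN 22.6, 25.8 and 19.7 against 44.0 and 32.6 CPM, both apart. The difference in the mean was 0.53 ± 0.16 on the log2 scale (edgeR adjusted p = 0.0440). It was kept only without RA FOXA2-negative replicate 3, RA FOXA2-positive replicate 2, BMP4 FOXA2-negative replicate 1 or LDN FOXA2-negative replicate 2, and ended without any 1 of the other 13 libraries (0.0514 to 0.176), with the replicate block (0.0563) and without both RA libraries numbered 1 (0.136). It also ended with library totals (0.0614), with no filter on low counts (0.0555) and without chromosomes 6, 8 and Y (0.0548). Snrpn went the other way in the mean, at -0.30 ± 0.11, without passing (adjusted p = 0.0937). With the replicate block Snrpn was called (-0.29, adjusted p = 0.0231), as was Kcnq1ot1 (0.27, adjusted p = 0.0417). Snrpn shares exons with Gm38393 (12.2 CPM on average) and with Snurf, which had no counts, so its reads may be split between these entries. Magel2 (0.0979 to 7.36 CPM) and Mkrn3 (1.88 to 11.8 CPM), a MAGE family gene and a RING finger gene, differed by 1.36 ± 0.75 and 0.56 ± 0.48 in the mean and did not pass (adjusted p = 0.327 and 0.599).

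The growth factor gene Igf2 and its neighbour H19, a long non-coding RNA, did not pass between fractions in the model with the expression filter. With no filter on low counts H19 was called lower in RA, in LDN and in the mean (adjusted p = 2.04e-07, 3.67e-10 and 5.96e-11) and Igf2 in LDN and the mean (0.000317 and 0.0251), and the replicate block called Igf2 in LDN (0.0438). H19 in RA was 190, 179 and 171 CPM in FOXA2-negative and 44.7, 51.2 and 157 CPM in FOXA2-positive libraries, apart but with a log2 fold change of -1.10 ± 0.61 (adjusted p = 0.560). In LDN the H19 fractions overlapped, at 69.9, 417 and 347 CPM in FOXA2-negative and 90.2 and 110 CPM in FOXA2-positive libraries. The fit with no filter also called more of all genes: 466 in place of 212 in RA, 460 in place of 177 in LDN and 1726 in place of 1357 in the mean. Igf2 in LDN was 115, 209 and 180 against 71.3 and 93.7 CPM (-1.03 ± 0.40, adjusted p = 0.328). In BMP4 both overlapped, at 0.09 ± 0.34 for Igf2 and 0.26 ± 0.59 for H19. Igf2 also overlaps an antisense gene, Igf2os, at 4.53 CPM.

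The other members did not pass between fractions, in a treatment or in the mean, in the model of all libraries. The long RNAs of the Dlk1-Meg3 domain, which host small RNAs, differed in the mean by 0.14 ± 0.19 (Meg3), 0.56 ± 0.41 (Rian) and 0.35 ± 0.21 (Mirg) on the log2 scale. At single loci the transcription factor gene Plagl1 had -0.87 ± 0.47, the splicing factor gene Zrsr1 0.09 ± 0.24 and Impact 0.11 ± 0.16 in the mean. The histone chaperone relative Nap1l5, on chromosome 6 with its raised median, had 1.06 ± 0.51. Impact in LDN was at 743, 679 and 766 against 1041 and 1020 CPM, apart (0.50 ± 0.29, adjusted p = 0.523), and a fit of the LDN groups alone called it (0.49, adjusted p = 0.0311). Nap1l5 stood at 1.84 ± 0.608 CPM (SD, n = 3) in LDN FOXA2-negative and 7.40 ± 1.45 CPM (n = 2) in LDN FOXA2-positive libraries (log2 fold change 2.00 ± 0.93, edgeR adjusted p = 0.421). Zrsr1 lies inside Commd1 and Nap1l5 inside Herc3, on the strand opposite to each host.

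By the copy usually expressed, 18 tested paternal members gave 2 higher and 1 lower in the mean of the treatments. The 11 maternal members gave 1 higher and 3 lower. Of all genes, 3.12% were higher and 4.5% lower. Phlda2 and Ascl2, both maternal and lower, lie in the same domain. The calls of Ndn, Copg2 and Phlda2 ended without some single libraries. Median log2 fold changes were 0.14 for paternal and -0.01 for maternal members. Both members whose copy varies, Gnas and Grb10, were higher. Whether the parental classes differ was not tested.

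For the difference between treatments in the effect of the fraction, 0 members passed in edgeR's model of the 17 libraries with the expression filter, and 0 with DESeq2. At an unadjusted p under 0.05 that model gave 0 members for BMP4 against RA (742 of all 17813 genes), 1 for LDN against RA (1035 genes) and 5 for BMP4 against LDN (1100 genes). For BMP4 against LDN the replicate block called Phlda2 (adjusted p = 0.0211). The fit with no filter on low counts called H19 for BMP4 against RA, Phlda2 for LDN against RA, and H19, Phlda2, Peg3 and Igf2 for BMP4 against LDN. It called 31, 31 and 54 of all genes in these comparisons, in place of 1, 1 and 6 with the filter. The smallest adjusted p for BMP4 against LDN was that of Peg3 (1.06 ± 0.31 on the log2 scale, 0.622). At an adjusted p under 0.05, 0.00561%, 0.00561% and 0.0337% of all genes passed in that order. For Nnat the fraction effect in BMP4 differed from that in RA by -0.16 ± 0.29 and in LDN from that in RA by -0.22 ± 0.31, and neither shows that they were equal.

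The second comparison was between treatments within a fraction. BMP4 and LDN share the schedule and were set against each other first. In FOXA2-positive cells 2 of 31 members passed, against 0.320% of all genes: Peg3 was higher and Peg12 lower after BMP4. Both are usually paternal genes of chromosome 7, in different domains. In FOXA2-negative cells 0 members passed by edgeR (0.196% of all genes did), with 7 at an unadjusted p under 0.05 (1258 of all 17813 genes), and DESeq2 called Mest and Peg12 among 117 genes. The comparisons of 1 fraction share libraries with each other, so their values are given side by side and not as repeats.

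Peg3, a zinc finger protein that acts in growth and maternal behaviour (chromosome 7, 6703892 to 6730431, minus strand), stood at 330, 527 and 331 CPM in BMP4 FOXA2-positive libraries and at 115 and 118 CPM in the LDN ones. RA FOXA2-positive libraries lay between, at 283, 214 and 211 CPM. The 3 treatments did not overlap. The log2 fold change of BMP4 against LDN was 1.77 ± 0.24 (edgeR adjusted p = 0.000215) and it stayed called without any 1 of the 5 libraries. Against RA the values were 0.75 ± 0.21 for BMP4 (0.395) and -1.02 ± 0.24 for LDN (0.0726). FOXA2-negative libraries held 320, 246 and 329 CPM in BMP4, 170, 155 and 223 in LDN and 287, 160 and 192 in RA. BMP4 was above LDN there too, without passing (0.71 ± 0.21, adjusted p = 0.279). Usp29, a deubiquitinase family gene whose promoter window overlaps that of Peg3 by 263 bases, had 1.61 to 20.2 CPM over all libraries and 1.47 ± 0.68 for BMP4 against LDN in FOXA2-positive cells (adjusted p = 0.660). Zim1, the zinc finger gene on the far side of Peg3, had 165 counts in 12 libraries.

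Peg12, a relative of the FRAT proteins that bind the Wnt pathway kinase GSK3, went the other way (chromosome 7, 62461871 to 62464510, minus strand). LDN FOXA2-positive libraries held 243 and 311 CPM, BMP4 ones 84.9, 81.5 and 74.1 CPM and RA ones 43.1, 60.7 and 107 CPM. LDN lay above every library of both other treatments, which overlapped each other. The log2 fold change was -1.79 ± 0.33 for BMP4 against LDN (edgeR adjusted p = 0.0107) and 1.98 ± 0.33 for LDN against RA (0.00984). In FOXA2-negative cells the levels were 159, 216 and 162 CPM in LDN, 60.2, 86.4 and 87.3 in BMP4 and 32.8, 79.8 and 77.7 in RA. The same order appeared there without passing, at -1.20 ± 0.30 for BMP4 against LDN (0.157) and 1.5 ± 0.30 for LDN against RA (0.0984). BMP4 against LDN ended as a call without BMP4 FOXA2-positive replicate 2 (0.0710) or 3 (0.0794) or LDN FOXA2-positive replicate 2 (0.0514) or 3 (0.184). LDN against RA ended without LDN FOXA2-positive replicate 3 (0.151) or RA FOXA2-positive replicate 2 (0.0544), and in a fit of these groups alone (0.0620). In FOXA2-negative cells LDN against RA passed without both RA libraries numbered 1 (adjusted p = 0.0333) and with the replicate block (1.57, 0.00439).

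The promoters of Peg3 and Peg12 are given because these genes carry the treatment differences. Neither window holds the hexamer on either strand, so no letter is in capitals.

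Peg3 promoter, chr7:6730370-6730669, minus strand: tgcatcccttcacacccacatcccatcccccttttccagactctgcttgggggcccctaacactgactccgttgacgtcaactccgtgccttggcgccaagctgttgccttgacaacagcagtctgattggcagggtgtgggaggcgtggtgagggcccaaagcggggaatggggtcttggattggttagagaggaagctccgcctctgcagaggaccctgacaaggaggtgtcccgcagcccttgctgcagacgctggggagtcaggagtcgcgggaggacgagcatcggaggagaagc

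Peg12 promoter, chr7:62464461-62464760, minus strand: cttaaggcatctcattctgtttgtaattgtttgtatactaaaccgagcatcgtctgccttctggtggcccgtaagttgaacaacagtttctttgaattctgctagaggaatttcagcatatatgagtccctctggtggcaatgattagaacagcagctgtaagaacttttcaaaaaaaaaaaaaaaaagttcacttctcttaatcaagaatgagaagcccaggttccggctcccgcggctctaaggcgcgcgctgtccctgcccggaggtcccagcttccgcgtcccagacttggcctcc

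They hold 13 and 12 CpG dinucleotides. The lack of a match says only that these letters are not in these windows.

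In FOXA2-positive cells 13 of 31 members lay apart between BMP4 and LDN (41.9%, against 22.4% of all genes), 8 higher and 5 lower after BMP4. Peg3 and Peg12 are among them, and the other 11 did not pass. Peg10, a retrotransposon-derived gene needed in the placenta, held 638, 803 and 563 CPM after BMP4 and 362 and 322 CPM after LDN (0.97 ± 0.24, edgeR adjusted p = 0.112). Igf2 held 273, 244 and 176 against 71.3 and 93.7 CPM (1.48 ± 0.40, adjusted p = 0.222), and H19 514, 491 and 302 against 90.2 and 110 CPM (2.12 ± 0.72, adjusted p = 0.503). Phlda2 held 331, 303 and 233 against 81.5 and 86.9 CPM (1.78 ± 0.52, adjusted p = 0.338). These 4 were higher in every BMP4 library. Lower in every BMP4 library, without passing, were Gnas (227, 208 and 219 against 296 and 263 CPM), Igf2r (115, 121 and 131 against 149 and 152 CPM), Airn and Nap1l5. DESeq2 added Peg10, Igf2 and Grb10 to Peg3 and Peg12 here, with 157 of all genes called in place of 57. A fit of edgeR to these groups alone added Peg10, Igf2, H19 and Phlda2, with 95 of all genes called. The summed surface ectoderm markers were also higher in BMP4 FOXA2-positive libraries, at 721 to 823 CPM against 449 to 515 in LDN and 396 to 484 in RA, with Krt14 and Trp63 at 0 in all 3 groups. Neural progenitor sums were lower after BMP4, at 537 to 726 against 1037 to 1155 CPM in LDN. The part of either in these values was not tested.

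**Figure D5:**
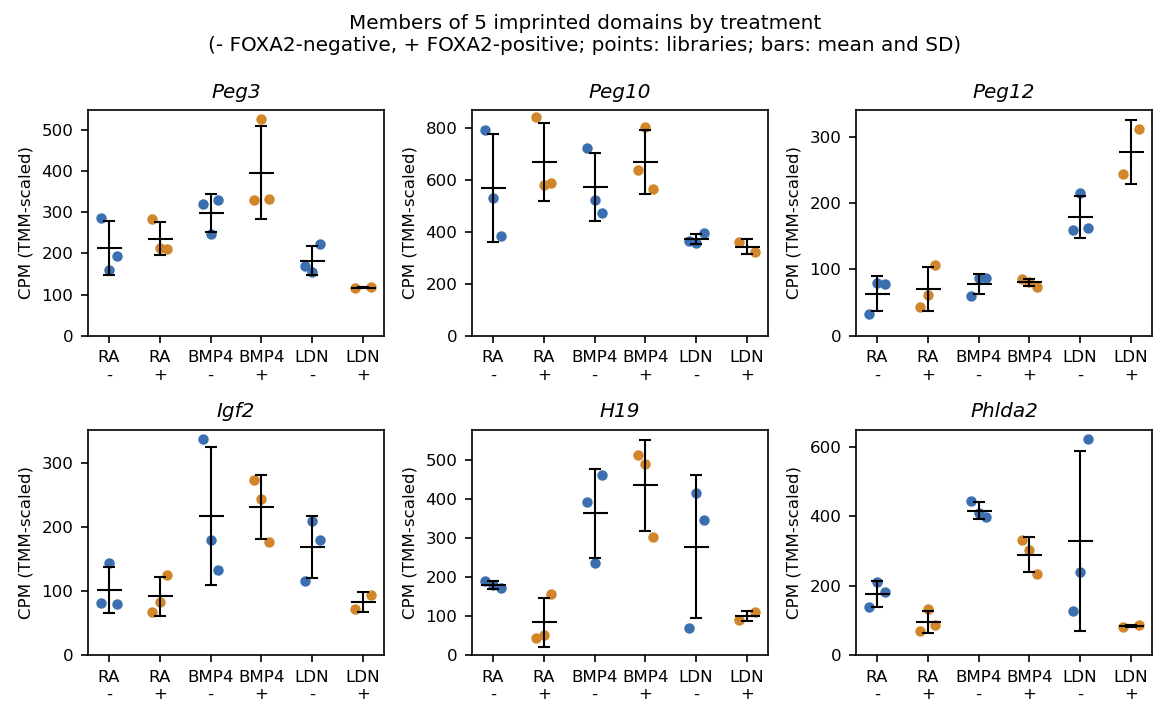
TMM-scaled CPM of Peg3, Peg10, Peg12, Igf2, H19 and Phlda2 in the 6 groups, with 1 point per library and bars for mean and SD. Peg12 is highest in LDN FOXA2-positive libraries (243 and 311 CPM), where Peg3 is lowest (115 and 118 CPM).

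In comparisons with RA, treatment and a possible difference in time of collection cannot be told apart. In FOXA2-positive cells Peg12 was the 1 member called by edgeR for LDN against RA (0.208% of all genes were). DESeq2 also called Peg3 (adjusted p = 0.0148) and Peg10 (0.0184), both lower after LDN, with 160 of all genes called in place of 37. For BMP4 against RA edgeR called 0 members (0.0786% of all genes) and 8 had an unadjusted p under 0.05 (998 of all 17813 genes), while DESeq2 called H19 and Igf2 among 43 genes. Their edgeR values were 2.37 ± 0.63 for H19 (adjusted p = 0.60) and 1.33 ± 0.35 for Igf2 (0.426), and 11 members lay apart (35.5%, against 11.8% of all genes). In FOXA2-negative cells edgeR called 0 members for BMP4 against RA (0.0786%) and 0 for LDN against RA (0.0393%), with 6 at an unadjusted p under 0.05 in each (1311 and 1336 of all genes). DESeq2 called Cdkn1c in the first, among 53 genes, and Peg12 in the second, among 39. Cdkn1c, the gene of the cell cycle inhibitor p57, held 198, 187 and 144 CPM in BMP4 and 115, 110 and 68.0 CPM in RA FOXA2-negative libraries, which were apart (0.85 ± 0.20, edgeR adjusted p = 0.147). Mest held 693, 492 and 577 CPM in BMP4 and 304, 431 and 319 CPM in LDN FOXA2-negative libraries, also apart (0.74 ± 0.17, adjusted p = 0.0601).

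A list of 57 other imprinted genes gave 47 that were tested. In the mean of the treatments 3 were higher in FOXA2-positive cells and 3 lower, against 7.62% of all genes called. The higher ones were Bcl2l1, a survival gene of the BCL2 family (0.82 ± 0.15 on the log2 scale, edgeR adjusted p = 0.000941), Casd1 (0.73 ± 0.21, 0.0362) and Zdbf2 (0.55 ± 0.13, 0.00912). The lower ones were the amino acid transporter gene Slc38a4 (-1.34 ± 0.25, 0.000812), the docking protein gene Gab1 (-0.83 ± 0.13, 8.98e-05) and Ddc (-0.55 ± 0.17, 0.0485). Within a treatment 1 of the 47 was called each time, Slc38a4 in RA and Gab1 in BMP4 and LDN. Of all genes, 1.19% were called in RA, 0.921% in BMP4 and 0.994% in LDN. Levels in FOXA2-negative and FOXA2-positive RA libraries were 29.1 ± 6.83 and 8.56 ± 3.48 CPM for Slc38a4 (SD, n = 3 each). The 4 highest of these genes that were not called, Cd81, Nap1l4, Jade1 and Tssc4, averaged 531, 267, 202 and 193 CPM.

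A list of 17 genes of imprint maintenance and the DNA methylation machinery also holds oxidases of 5-methylcytosine. In the mean of the treatments 1 was higher and 6 lower in FOXA2-positive cells (3.12% and 4.5% of all genes). Dnmt3l, the cofactor of de novo methylation, fell from 54.0 ± 15.9 to 10.9 ± 6.46 CPM in RA (SD, n = 3 each) and by 1.83 ± 0.24 in the mean (edgeR adjusted p = 1.2e-05). The de novo methyltransferase genes Dnmt3a (-0.73 ± 0.14, adjusted p = 0.0017) and Dnmt3b (-0.41 ± 0.09, 0.00534) were lower. So were the 5-methylcytosine oxidase gene Tet2 (-1.5 ± 0.20, 1.2e-05), the oocyte and stem cell gene Dppa3 (-3.55 ± 0.63, 0.00255) and the chromatin remodeller gene Hells (-0.41 ± 0.13, 0.0443). Tet3, another oxidase of the same family, was higher (0.79 ± 0.18, 0.00714). It lies on chromosome 6, where the median of genes with at least 20 CPM was 0.29. The part of these differences in the imprinted genes was not tested. Of the genes not called, only those among the 5 highest in level are given here. Trim28 differed by -0.10 ± 0.07 (edgeR adjusted p = 0.451), the maintenance factor gene Uhrf1 by 0.00 ± 0.08 (0.9999) and the insulator protein gene Ctcf by -0.03 ± 0.08 (0.962).

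RefSeq promoter windows of 300 bases were found for 27 of the 33 members, 40 windows in all. The hexamer TGCCGC, searched on both strands, was in 11 of the 40 (27.5%) and in 11.6% of all 32851 windows. These 11 belong to 10 members: Copg2, Grb10, Igf2, Meg3, Mest, Nap1l5, Nnat, Plagl1, Snrpn and Zim1. Member windows had a median of 13 CpG dinucleotides and all windows a median of 7, and the hexamer itself holds a CpG. Of the 9 members called between fractions, Nnat, Grb10, Copg2 and Mest have a match.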

How the data were processed

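SMART-Seq v2 libraries of 17 samples, per the labels, were deposited by the authors as tables of raw, unscaled counts for Ensembl genes. The submitters' processing notes list the build mm10 and HTSeq 0.11.2, UMI-tools 1.0.0, DESeq2 1.26.0 and cutadapt 1.18. Not given in the sources used here: aligner, annotation release and strand setting. Summary lines that name no gene took 49.3% to 54.4% of tallied reads and were left out. Depth was 8435845 to 10796136 counts per library.

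The counts entered edgeR 4.0.16 with limma 3.58.1 under R 4.3.3: filterByExpr (minimum count 10, minimum total 15) kept 17813 genes, libraries were scaled by TMM, and a robust quasi-likelihood model of 6 groups was fitted (11 residual degrees of freedom). Adjusted p-values are Benjamini-Hochberg over all genes tested, with a threshold of 0.05, from edgeR unless DESeq2 1.42.0 is named. The SE is the absolute log2 fold change over the root of edgeR's F. Levels are TMM-scaled CPM. The model was tested on simulated data. Coordinates are from GENCODE M21 (GRCm38, the same assembly as mm10).

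Groups came from the library titles. No source says whether a group's libraries are separate cultures, and the p-values then reflect just the library-to-library spread, which may be technical. Members and gene lists were chosen with earlier results of these data known, as were 2 alternatives: leaving out the pair of RA libraries numbered 1, and leaving out chromosomes 6, 8 and Y. Any member could be named, with those under 10 counts in total given by counts only. Genes of the 2 further lists were named if called between fractions or among the 5 highest in level, and marker genes if called or at 0.

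Same-numbered FOXA2-positive and FOXA2-negative libraries were checked for pairing by the correlation of their deviations from group means over 6664 genes. It was 0.596, 0.242 and 0.283 in RA, where numbers were taken as pairs from the data, 0.017, 0.070 and 0.073 in BMP4, and 0.054 and 0.056 in LDN, where they were not. Deviations cancel out within a group, so the RA libraries numbered 1, which stand apart in both fractions, can raise the other RA values too. The check therefore cannot show that the other RA libraries are pairs. Alternatives were DESeq2, RLE scaling, library totals, other filters, compared groups alone, the replicate block, and the omission of single libraries.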

Additional observations from a re-analysis of the deposited data

How the results depend on the processing

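No called member changed sign under any alternative. Counts of called members that moved by more than 1.5 times were as follows. With DESeq2 there were 4 between fractions in LDN (427 of all genes, against 177). FOXA2-negative cells had 2, 1 and 1 for BMP4 against LDN, BMP4 against RA and LDN against RA (117, 53 and 39 of all genes, against 35, 14 and 7). FOXA2-positive cells had 5, 2 and 3 in the same order (157, 43 and 160 of all genes, against 57, 14 and 37). With no filter on low counts there were 7, 4 and 6 between fractions in RA, BMP4 and LDN (466, 411 and 460 of all genes, against 212, 164 and 177). Between treatments, in the order above, there were 4, 4 and 3 in FOXA2-negative cells (141, 94 and 83 of all genes, against 35, 14 and 7). FOXA2-positive cells had 7, 5 and 5 (196, 100 and 294 of all genes, against 57, 14 and 37). Differences of the fraction effect gave 1, 1 and 4 for BMP4 minus RA, LDN minus RA and BMP4 minus LDN (31, 31 and 54 of all genes, against 1, 1 and 6). Fitting only the groups compared gave 1 between fractions in RA (127 of all genes) and 1 for BMP4 against LDN in FOXA2-negative cells (32 of all genes). In FOXA2-positive cells it gave 6, 2 and 0 (95, 25 and 9 of all genes). Library totals in place of TMM gave 1 in BMP4, 1 in LDN and 1 for BMP4 against LDN in FOXA2-negative cells (178, 193 and 37 of all genes). RLE scaling gave 1 in BMP4 (164 of all genes), as did leaving out chromosomes 6, 8 and Y (126 of all genes). Leaving out both RA libraries numbered 1 gave 1 for LDN against RA in FOXA2-negative cells (9 of all genes). The cause of these moves was not tested.

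The replicate block gave 5, 4 and 4 members between fractions in RA, BMP4 and LDN (362, 282 and 220 of all genes, against 212, 164 and 177). It gave 1 for BMP4 against LDN and 1 for LDN against RA in FOXA2-negative cells (33 and 9 of all genes, against 35 and 7). For the difference of the fraction effect between BMP4 and LDN it gave 1, Phlda2 (6 of all genes, against 6). Only the RA numbers were taken to pair libraries, a choice made from the same data. Without 1 library at a time the counts ran from 1 to 3 in RA, 0 to 2 in BMP4, 0 to 1 in LDN and 6 to 9 in the mean of the treatments. They ran from 0 to 1 for BMP4 against LDN in FOXA2-negative cells, from 1 to 2 for BMP4 against LDN and from 0 to 1 for LDN against RA in FOXA2-positive cells. Where leaving out a library left 1 in LDN FOXA2-positive, the lone library was assumed to vary like the other groups. In the mean of the treatments the other alternatives gave 6 to 10 members and 946 to 1726 of all genes, against 9 and 1357. Nnat, Gnas, Grb10, Igf2r and Ascl2 were called there under all alternatives run, and Mest under all that kept chromosome 6. Depth limits members under 10 CPM, and 2 libraries limit every comparison with LDN FOXA2-positive.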
